A study of Mus musculus with 32 samples.

Results

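The regions are stretches of the mouse genome that carried histone H3 lysine 9 trimethylation (H3K9me3) in fetal germ cells of both Morc1 genotypes. After birth they lay largely outside peaks in the Morc1 knockout only. H3K9me3 is a mark of silent heterochromatin that lies mainly over transposable elements, satellite repeats and clustered gene families. Male germ cells erase most DNA methylation before the gonocyte stage and then rebuild it around birth, and over this period H3K9me3 is among the marks that keep repeats silent. MORC1 is a nuclear ATPase of the GHKL family made in male germ cells, where its loss is known to leave some retrotransposons active.

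The mark was mapped by ChIP-seq in male germ cells from the testes of mice carrying the Mvh-Venus transgene, a fluorescent protein driven by a germ cell gene, which all groups share. Het cells were Morc1 (+/-) and KO cells Morc1 (-/-), from the embryonic stages E13.5 and E16.5 and from the days P0 and P3 after birth. The labels list 2 H3K9me3 samples for each of 8 groups, and each group is represented by 1 deposited peak list with no heights or p-values. Another 16 samples, made with an antibody against histone H3, were not analysed here. The number of animals behind a sample is not given in the sources used here, and peak lists hold no expression value, so neither the cell type nor the knockout could be checked in them.

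The autosomes were divided into 1 kb bins, and a bin was called in a list when at least 50% of it lay in peaks. Members were chosen by their measured calls: called in both E16.5 lists, called in het at P0 and at P3, and not called in KO at P0 or at P3. This gave 4483 bins in 2985 runs of adjacent bins, out of 249156 bins called in both E16.5 lists, a background share of 1.80%. The calls at E16.5, P0 and P3 therefore define the set, and the values from those 6 lists are given as a description. The E13.5 lists, gene positions and sequences were not part of the choice. With 1 list for each group there is no replicate error and no test between genotypes. A bin that is not called can still hold peaks over less than 50% of its length. Absence of a peak means that the authors' list holds none, and read depth is unknown. The lists held 50191 to 89020 autosomal peaks, and after birth the KO lists held more peaks, with 17.0% of the bins called at P0 in either genotype called in KO only and 12.9% in het only, and 20.2% and 12.9% at P3. All intervals are Wilson intervals at the 95% level. They reflect counting error alone and treat bins or runs as independent, which neighbouring ones are not.

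The sequences that could be read for these regions were those of gene starts, taken from the RefSeq table for GRCm38.p6, the assembly also named mm10 (250 bases before each start and 50 after). Of 31396 such windows on the autosomes, 18 lay wholly inside member runs, 13 of them at noncoding genes and 5 at protein-coding genes. They are shown because some of them share long stretches of letters although they lie on different chromosomes. The start windows of the long noncoding RNA genes Gm19589 (chr1:88551267-88551566, + strand) and 4933404K08Rik (chr13:23278100-23278399, + strand) read as follows, with their longest shared stretch in capitals.
Gm19589: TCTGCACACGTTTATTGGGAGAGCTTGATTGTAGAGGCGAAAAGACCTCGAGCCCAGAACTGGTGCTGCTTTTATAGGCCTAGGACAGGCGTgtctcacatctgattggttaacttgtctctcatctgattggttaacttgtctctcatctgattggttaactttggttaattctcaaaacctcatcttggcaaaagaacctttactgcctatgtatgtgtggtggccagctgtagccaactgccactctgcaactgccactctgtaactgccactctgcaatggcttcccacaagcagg
4933404K08Rik: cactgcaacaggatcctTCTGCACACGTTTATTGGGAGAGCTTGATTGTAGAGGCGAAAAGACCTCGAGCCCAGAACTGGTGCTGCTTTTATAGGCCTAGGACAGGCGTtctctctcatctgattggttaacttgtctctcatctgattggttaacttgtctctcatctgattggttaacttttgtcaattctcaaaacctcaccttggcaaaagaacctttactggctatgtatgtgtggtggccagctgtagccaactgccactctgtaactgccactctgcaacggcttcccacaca
The shared stretch was 92 bases long, and over a local alignment of 273 columns 263 bases (96.3%) were identical. A weaker match, on opposite strands, joined the noncoding genes Gm46244 (chr1:113145271-113145570, + strand) and Gm20110 (chr10:99608921-99609220, + strand), here with the shared 24 bases in capitals.
Gm46244: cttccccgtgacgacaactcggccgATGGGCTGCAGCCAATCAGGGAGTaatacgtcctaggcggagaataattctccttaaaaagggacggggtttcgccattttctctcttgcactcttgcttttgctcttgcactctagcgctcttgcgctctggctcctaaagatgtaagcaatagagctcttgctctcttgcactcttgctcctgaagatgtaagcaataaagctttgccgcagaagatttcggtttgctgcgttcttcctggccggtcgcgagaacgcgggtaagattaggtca
Gm20110: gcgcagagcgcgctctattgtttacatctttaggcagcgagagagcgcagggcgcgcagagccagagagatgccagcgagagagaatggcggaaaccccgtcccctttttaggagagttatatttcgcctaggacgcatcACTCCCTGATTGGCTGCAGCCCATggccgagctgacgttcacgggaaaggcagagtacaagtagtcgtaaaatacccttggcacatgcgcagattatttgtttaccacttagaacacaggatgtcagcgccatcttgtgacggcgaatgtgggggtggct
Over 198 alignment columns, 159 bases (80.3%) were identical after the reverse complement of the second was taken. These were the only 2 of the 153 pairs of member windows that shared a stretch of at least 20 bases.

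Shared letters also reached windows outside the set. A window was counted as sharing when the start window of another gene held at least 10 of its 16-base words on either strand, a measure chosen after the sequences had been seen. By that count 8 of the 18 member windows (44.4%) shared letters with another gene, against 13.9% of all autosomal windows, 36.3% of the 727 windows in bins kept in both genotypes and 32% of the 25 windows in bins kept only in KO. For partners on another chromosome the values were 7 of 18 windows (38.9%), 7.11%, 13.9% and 16%. Windows in het-only postnatal bins that were unmarked at E16.5 shared letters with another chromosome in 8 of 32 cases (25%), and those in bins lost in both genotypes in 7.61%. The 4933404K08Rik window shared letters with windows of 33 genes on 17 chromosomes and the Gm19589 window with 29 genes on 17 chromosomes. The Gm46244 window did so with 23 genes on 16 chromosomes and the Gm20110 window with 18 genes on 14 chromosomes. The partners of Vmn2r11 and Vmn1r14, which encode vomeronasal receptors, were led by receptors of the same families, Vmn2r9 and Vmn1r12. The sets of windows are small and no test was made between them. They also differ in gene type. Protein-coding genes gave 5 of the 18 member windows, 424 of 727 in bins kept in both and 14 of 25 in bins kept only in KO. Among all 31396 autosomal windows 20085 were at protein-coding genes. The 4933404K08Rik, Vmn1r14 and Gm41020 windows lie in runs of 1 kb and were singled out after their values had been seen.

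Base composition set a few of these windows apart. The median member window had 42.7% G and C and 2 CG dinucleotides, as did windows in bins kept in both (41.7% and 2), whereas the median autosomal window had 53.0% and 7. CG was searched as the letters CG, which read the same on both strands. It occurred at least 10 times in 3 member windows, those of Gm20110 (20 times), Gm46244 (18) and Gm41020 (17), and not at all in 4. At least 10 were found in 44.0% of all autosomal windows and in 2.34% of windows in bins kept in both, but in 6 of 32 windows (18.8%) in het-only postnatal bins unmarked at E16.5. The run of 6 kb around the start of Gm20110 (chr10:99606001-99612000) held 4.43 kb of peaks in het against 4.65 kb in KO at E13.5, and 5.96 and 5.64 kb by E16.5. After birth it was covered in full in het on both days, against 0 kb on P0 and 0.061 kb on P3 in KO. The start window was thus wholly under the mark in 6 lists and outside it in KO after birth. The run of 3 kb at Vmn2r11 (chr5:109057001-109060000) had 2.57 kb in het against 3 kb in KO at E13.5, 2.72 and 2.52 kb by E16.5, and was full in het and empty in KO on both days after birth. The run of 2 kb at Gm19589 (chr1:88551001-88553000) was empty in both lists at E13.5, had 2 and 1.96 kb by E16.5, was full in het after birth and had 0.09 kb on P0 and 0 kb on P3 in KO. The gene starts thus differed at E13.5 and were alike from E16.5 on, as the rule requires.

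The rule can be read against what became of all bins marked at E16.5. Of those 249156 bins, 175628 (70.5%) were called in het at both P0 and P3, and 183829 (73.8%) in KO at both. All 4 postnatal lists held 160828 bins (64.5%), here called kept in both, and none of them held 21486 bins (8.62%), called lost in both. The members are the 2.55% of the bins kept in het that had no KO call at either stage. The opposite set, kept in KO at P0 and P3 and called in het at neither, held 4277 bins, a background share of 1.72% and 2.33% of the bins kept in KO. In number of bins the members were close to the opposite set. They made up 51.2% of both sets together (95% interval 50.1 to 52.2%), and 49.96% when only the longer 50% of each list was used. Members outnumbered the opposite set on 9 of 19 autosomes and were fewer on 10.

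The members and the opposite set differed in how their bins were joined, a description from the same lists that chose them. Of the member runs, 1984 (66.5%) were 1 kb long, 667 (22.3%) were 2 kb and 334 (11.2%, 95% interval 10.1 to 12.4%) were at least 3 kb, with a longest run of 8 kb. In the opposite set 3063 of 3612 runs (84.8%) were 1 kb long and 90 (2.49%, 2.03 to 3.05%) reached 3 kb, with a longest of 6 kb. Bins lost in both were joined much like the members. Of their 14040 runs, 9549 (68.0%) were 1 kb long, 1620 (11.5%) reached 3 kb and the longest was 13 kb. Among runs kept in both, 47.2% reached 3 kb. Long member runs outnumbered long opposite runs on all 19 autosomes. Members made up 78.8% of the runs of at least 3 kb in the 2 sets (74.6 to 82.4%), and 57.3% with the longer 50% of each list, where 622 member runs reached 3 kb. With the longest peaks of each list taken in equal numbers there were 573. With no KO base pair allowed at P0 or P3 there were 219. The long runs held 1165 of the 4483 member bins (26.0%), against 6.92% in the opposite set.

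**Figure D1:**
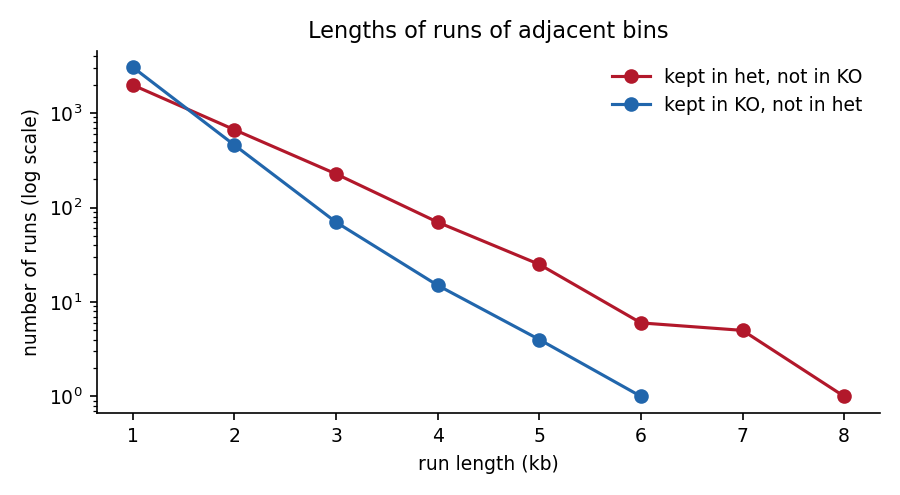
Number of runs (y axis, log scale) by run length in kb (x axis) for members (red) and for bins kept in KO but not in het (blue). Single bins were more numerous in the opposite set (3063 against 1984), and runs of 3 kb or more in the members (334 against 90); lengths without a run are not drawn.

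Peak coverage of the member bins by list shows how sharp the definition is. The mean share of a member bin in peaks was 38.2% in E13.5 het and 43.1% in E13.5 KO. At E16.5 it was 93.3% in het and 91.4% in KO, so both genotypes covered nearly the whole bin. At P0 it was 95.8% in het and 7.42% in KO, and at P3 93.2% and 4.66%. Het kept the coverage it had at E16.5, and a small remainder was left in KO. Of the members, 3044 (67.9%) had no base pair of a KO peak at P0 or P3, 995 (22.2%) had some but under 400 bp at the higher of the 2 stages and 444 (9.90%) had at least 400 bp, just inside the limit of 500 bp. Just outside it, 960 bins met every other condition and reached or passed the limit in KO by less than 100 bp. On the side of the required calls, 656 members (14.6%) reached or passed the limit by less than 100 bp in the lowest of the 4 lists and 2213 (49.4%) were fully covered in all 4, and 1194 bins just outside had at least 400 bp but missed the limit.

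**Figure D2:**
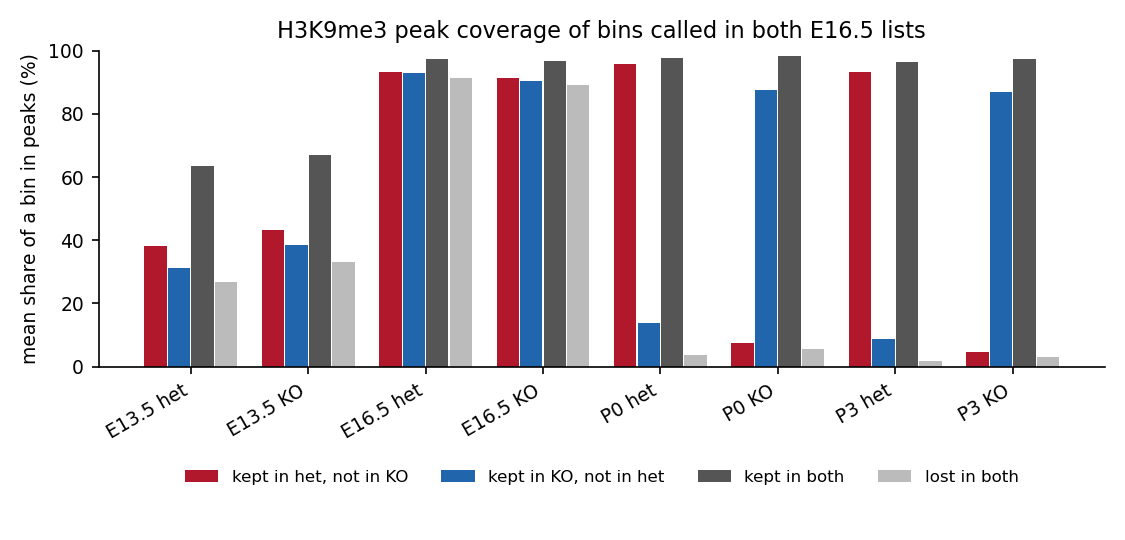
Mean share of a 1 kb bin in peaks (y axis, %) in the 8 lists (x axis) for members (red), bins kept in KO but not het (blue), bins kept in both (dark grey) and bins lost in both (light grey). Members had 91.4% in KO at E16.5 and 7.42% at P0, and the bars from E16.5 to P3 are set by the rule; at E13.5, outside the rule, members lay between bins kept in both and bins lost in both.

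The E13.5 lists, which the rule did not use, show which members already lay in peaks at E13.5. They were the smallest lists, with 50191 autosomal peaks in het and 55136 in KO, against 74722 and 70487 at E16.5. A missing E13.5 call therefore does not show that the mark was absent. Of the member bins 1786 (39.8%) were called at E13.5 in het and 1974 (44.0%) in KO, where the background of all bins marked at E16.5 was 54.9% and 59.4%. At least 1 E13.5 list called 49.7% of members (95% interval 48.2 to 51.2%), against a background of 63.6%. Bins kept in both reached 72.0%, the opposite set 45.0% and bins lost in both 38.3%. The member share thus lay between those of bins kept in both and bins lost in both. By chromosome the member share ranged from 37.7 to 59.1%, below that of bins kept in both on 19 of 19 autosomes, above that of bins lost in both on 19 and above that of the opposite set on 17. No test was made, because chromosomes of 1 list are not replicates.

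Calls in both genotypes were the commonest among members marked at E13.5. Both lists called 1532 member bins (34.2%), het only 254 (5.67%, background 4.16%), KO only 442 (9.86%, background 8.65%) and neither 2255 (50.3%). KO exceeded het on 19 of 19 autosomes in members and on 18 or 19 in each comparison set. There were 1.11 KO calls for each het call in members and 1.08 in all bins marked at E16.5. For bins called in 1 list only, there were 1.74 KO-only calls for each het-only call in members and 2.08 in the background. Long and short runs gave alike values: 50.4% of bins in runs of at least 3 kb and 49.5% of bins in runs of 1 or 2 kb had an E13.5 call. Taken as whole runs, 861 (28.8%) were called throughout in both E13.5 lists, 1332 (44.6%) in neither at any bin, 138 in het only, 212 in KO only and 442 were mixed.

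Bins that were het-only after birth without a mark at E16.5 in either genotype were more numerous than the members. There were 11563 of them, and 8.29% had an E13.5 call (95% interval 7.80 to 8.80%). Runs of at least 3 kb made up 17.9% of their 6803 runs, against 11.2% in the members. The members were thus the smaller of these sets. Postnatal het-only bins called in a single E16.5 list belong to neither and were not counted. No background share was computed for bins unmarked at E16.5.

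The coverage around the member runs is given as a description, because the rule fixes the postnatal values at the centre. At the central 1 kb of the runs the mean coverage was 95.1% in P0 het and 8.09% in P0 KO, and 92.6% and 5.27% at P3. At 5 to 6 kb from the centre it was 30.8% and 23.0% at P0, and 24.5% and 19.4% at P3. From 10 to 15 kb it was 29.0% and 26.5% at P0, and 23.5% and 22.6% at P3. The opposite set gave the reverse shape, with P0 values of 14.3% in het and 87.2% in KO at the centre and 25.2% and 29.1% at 5 to 6 kb. A central gap that shrinks in the flanks thus comes with the choice of bins in either direction. At E16.5 the central values were 93.3% in het and 91.6% in KO and those at 10 to 15 kb 29.9% and 27.2%, with a summit in both genotypes.

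**Figure D3:**
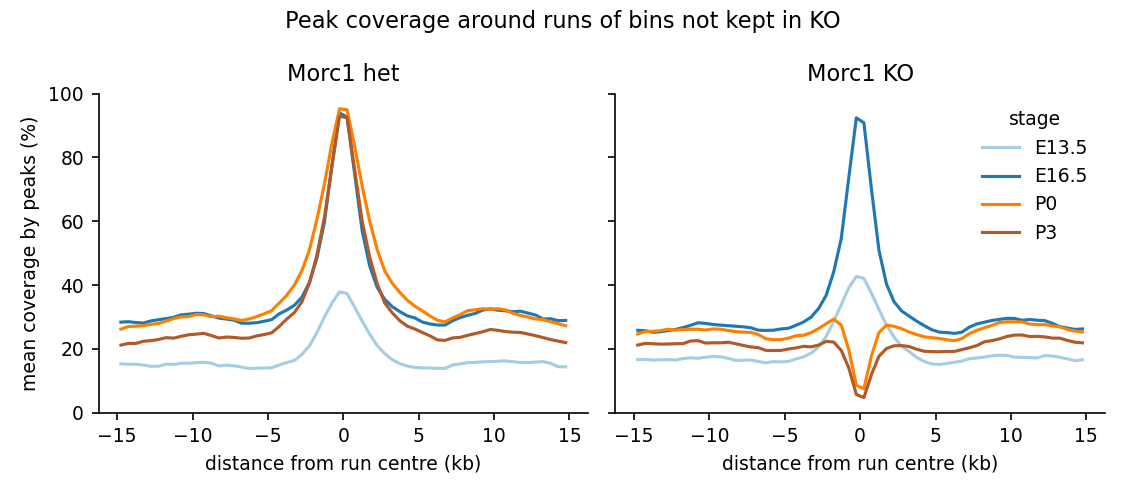
Mean coverage by peaks (y axis, %) in 500 bp steps by distance from the centre of the 2985 member runs (x axis, kb) in het (left) and KO (right), with a line for each stage. Both genotypes have a summit at E16.5 (93.3% and 91.6% at the centre); at P0 and P3 het keeps it and KO has a dip to 8.09% and 5.27% with coverage on both sides.

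Most member runs were parts of longer het peaks. The het peak over a run had a median length of 5.57 kb at P0 and 4.23 kb at P3, and a median run took up 23.2% of the P0 peak and 29.7% of the P3 peak. In 1537 runs (51.5%) that het peak also touched a KO peak at both stages, in 676 (22.6%) at 1 stage, and in 772 (25.9%, 95% interval 24.3 to 27.5%) at neither. In those 772 the whole het peak had no KO counterpart after birth, and in the others the KO list kept a piece of it. The median distance from a run to the nearest KO peak was 0.273 kb at P0 and 1.28 kb at P3, and 584 runs (19.6%) lay more than 5 kb from any KO peak of P0 and P3. At E16.5 the peak over a run had a median length of 4.25 kb in het and 3.72 kb in KO.

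Absence of any base pair of the other genotype is described next for both sets, from the same postnatal lists that chose them. No base pair of a KO peak at P0 or P3 fell in 1581 member runs (53.0%, 95% interval 51.2 to 54.8%), and no base pair of a het peak in 1362 opposite runs (37.7%, 36.1 to 39.3%). Whole peaks without a counterpart at both stages covered 25.9% of member runs and 19.5% of opposite runs (18.2 to 20.8%). Among runs of at least 3 kb these were 99 of 334 member runs (29.6%) and 9 of 90 opposite runs (10%). The het-only runs without a mark at E16.5 had a higher share than either, 50.1% (49.0 to 51.3%). The share of member runs without KO base pairs depended on the call limit, being 69.9% at 25% of a bin and 37.9% at 75%, and the opposite set was not recomputed at these limits.

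The 5 longest runs illustrate the pattern in single regions. The longest, chr6:44237001-44245000 (8 kb, mm10), lay outside protein-coding genes, and the next gene at higher coordinates was Cntnap2, a neuronal adhesion gene. At E13.5 peaks lay over 1.00 kb of it in het and 1.30 kb in KO. Both E16.5 lists and P0 het held all 8 kb, P3 het held 7.90 kb and both postnatal KO lists held 0 kb. Most of this run lay outside E13.5 peaks in both genotypes, and the nearest KO peak was 8.43 kb away at P0 and 14.6 kb away at P3. The E16.5 peak over it was 28.01 kb long in het and 18.7 kb in KO, whereas the P0 het peak was 8.99 kb long.

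The next 4 runs, taken from 5 runs of 7 kb by their coverage in P0 het, were all fully covered at E16.5 in both genotypes and at P0 in het. At chr13:115922001-115929000, between Itga1, an integrin gene, and Isl1, which encodes a homeodomain transcription factor, the E13.5 lists held 2.98 kb in het and 3.33 kb in KO and P3 het held 6.64 kb. At chr14:90925001-90932000, between the protocadherin genes Pcdh20 and Pcdh9 and 2085 kb from the nearest of them, the E13.5 values were 3.19 and 3.48 kb and P3 het held 7 kb. At chr3:125133001-125140000, between 1700003H04Rik and Ndst4, which encodes a heparan sulfate sulfotransferase, they were 4.23 and 4.72 kb and P3 het again held 7 kb. These runs were marked over part of their length before E16.5. The last, chr8:58749001-58756000, lay inside the gene body of Galntl6, which encodes a GalNAc transferase-like protein, with 4.63 and 5.17 kb at E13.5 and 6.63 kb in P3 het. None of the 4 had a KO base pair at P0 or P3, but the nearest KO peak ranged from 0.426 to 13.4 kb away at P0 and from 0.336 to 4.04 kb at P3.

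**Figure D4:**
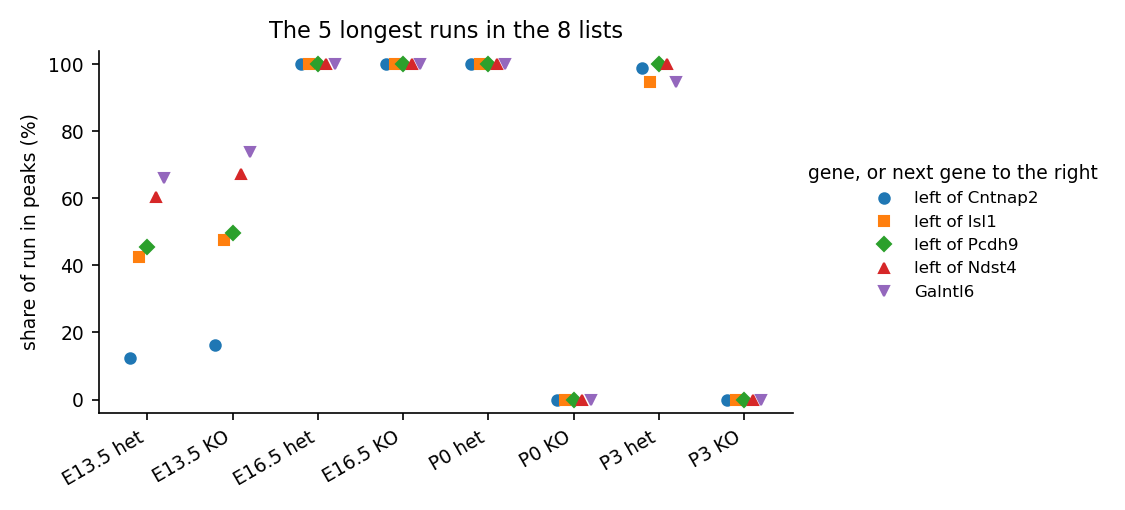
Share of each of the 5 longest member runs in peaks (y axis, %) in the 8 lists (x axis), with a symbol for each run named by its gene or by the next gene at higher coordinates. All 5 are fully covered in both E16.5 lists and P0 het and at 0 in both postnatal KO lists, which the rule favours; the E13.5 shares, outside the rule, spread from the run near Cntnap2 (1.00 kb of 8 kb in het) to that in Galntl6 (4.63 kb of 7 kb).

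Runs chosen by their E13.5 calls show how the members vary among themselves. The longest run called throughout in both E13.5 lists was chr5:10519001-10525000 (6 kb), between the glutamate receptor gene Grm3 and Gm5861. At E13.5 it held 5.52 kb in het and 5.53 kb in KO, and at E16.5 5.53 kb in het and 5.58 kb in KO. In het 5.74 kb remained on P0 and 5.51 kb on P3, and the postnatal KO lists held none. This region was thus marked in every list up to E16.5 and in het after it. It was part of a P0 het peak of 19.07 kb, and the nearest KO peak was 0.282 kb away at P0 and 0.573 kb away at P3. The longest run with no E13.5 call, chr2:8413001-8418000 (5 kb), lay 1019 kb from the nearest gene, between Celf2 and Gata3. It held no base pair in either E13.5 list, all 5 kb in both E16.5 lists and in het at P0 and P3, 0.184 kb on P0 and 0 kb on P3 in KO. Here both genotypes were fully covered at E16.5, and after birth het was full and KO nearly empty. The run was part of a P0 het peak of 10.99 kb. A P0 KO peak reached into it, and the nearest P3 KO peak was 0.277 kb away.

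Runs with an E13.5 call in 1 genotype were shorter. The longest het-only case, chr2:55405001-55409000 (4 kb), lay between Galnt13 and Kcnj3, a potassium channel gene. Het held 3.78 kb and KO 0 kb at E13.5. Later values were 3.85 and 3.86 kb for E16.5, 3.81 kb in P0 het against 0.438 kb in KO, and 3.88 kb in P3 het against 0.082 kb. The longest KO-only case, chr4:62060001-62063000 (3 kb), lay between Mup20 and Mup3, genes of major urinary proteins. Het held 0.352 kb and KO 2.54 kb at E13.5. Later values were 2.74 and 2.69 kb for E16.5, 3 kb in P0 het against 0.265 kb in KO, and 2.94 kb in P3 het against 0.024 kb. In the second case the KO list held more of the run than het at E13.5 and little of it after birth.

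The share of member runs in protein-coding gene bodies was below that of each comparison set. The midpoint was in a gene body in 372 of 2985 runs (12.5%, 95% interval 11.3 to 13.7%). The share was 22.0% for runs kept in both (21.6 to 22.4%), 23.3% for the opposite set (22.0 to 24.7%), 23.9% for runs lost in both (23.2 to 24.6%) and 20.2% for het-only runs unmarked at E16.5 (19.2 to 21.1%). The member share was the lower on 19 of 19 autosomes against each of the first 3 and on 17 against the last. Against the opposite set the difference was -10.9 percentage points, with an interval of -12.7 to -9.06 from the combined Wilson half-widths. Among runs of at least 3 kb, a subset chosen after the lengths had been seen, it was -4.05 points with an interval of -11.8 to 3.65, which spans 0. Outside genes, the median distance to the nearest gene was 252 kb for members, 123 kb for runs kept in both, 192 kb for the opposite set and 254 kb for runs lost in both. Of all member runs 1728 (57.9%) were over 100 kb and 803 (26.9%) over 500 kb from a gene, against 42.2% and 15.4% of runs kept in both, 47.5% and 22.3% of the opposite set and 48.8% and 26.5% of runs lost in both. Beyond 500 kb the member share was thus close to that of runs lost in both.

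**Figure D5:**
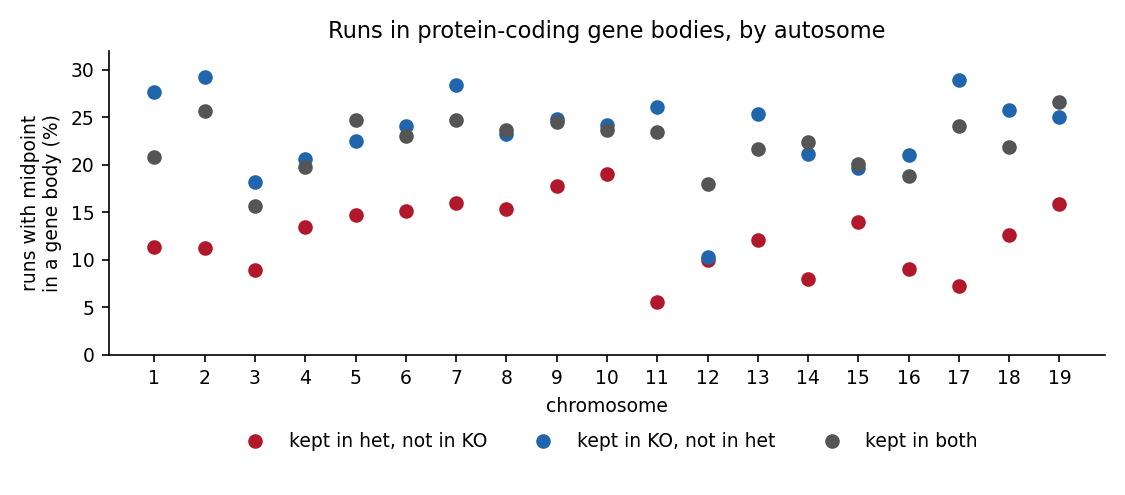
Share of runs with their midpoint in a protein-coding gene body (y axis, %) on each autosome (x axis) for members (red), bins kept in KO but not het (blue) and bins kept in both (dark grey). The member share ranges from 5.56 to 18.99% and lies below that of both other sets on every autosome, though on chromosome 12 the members and the opposite set nearly coincide.

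At least 1 member bin lay in 296 of the 6024 protein-coding genes with bins marked at E16.5, a share of 4.91%. Bins of the opposite set lay in more of these genes, 662. Pcdh15, which encodes a protocadherin of the hair cell tip link, held the most, with 15 member bins of 170 marked at E16.5 (chr10:73096277-74649831). Peaks over its gene body summed to 75.1 kb in het against 97.5 kb in KO at E13.5 and to 221 kb in het against 189 kb in KO at E16.5. On P0 the sums were 210 kb in het and 189 kb in KO, and on P3 198 kb in het and 185 kb in KO. The KO total was the lower from E16.5 on, by a part of what the gene carried. Galntl6 followed with 11 member bins and Lrrc4c, which encodes a synaptic ligand of netrin-G1, with 8. In Lrrc4c the sums were 27.6 kb in het against 26.2 kb in KO at E13.5, 110.2 kb against 90.5 kb at E16.5, 114 kb against 91.2 kb on P0 and 103.5 kb against 75.5 kb on P3, with no bin of the opposite direction.

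The other genes of the leading 10 each held a small number of members within a large marked body. Cdh12, a cadherin gene of the brain, Naaladl2, and Ptprd, which encodes a receptor tyrosine phosphatase, had 7 member bins each, and Ccser1 and Csmd1 had 6. Csmd1, which encodes a complement regulator, also had 29 bins of the opposite direction, and its KO coverage was the higher after birth, with 403 against 323 kb at P0 and 463 against 320 kb at P3. Epha6, an ephrin receptor gene, and A830018L16Rik had 5. A gene that held members thus did not always have the lower total in KO.

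A few shorter genes had a larger part of their marked length missing in KO. Vmn2r109, a vomeronasal receptor gene of 24.2 kb (chr17:20540517-20564756), was covered over its whole length, 24.2 kb, in both lists at E13.5 and E16.5 and in het at P0 and P3. In KO it held 19.1 kb at P0 and 16.01 kb at P3, and 5 of its 24 marked bins were members. Zfp605, a zinc finger gene (chr5:110110028-110131536), held 4.57 kb in het against 4.70 kb in KO at E13.5, 4.52 kb against 5.60 kb at E16.5, 4.20 kb against 0 kb on P0 and 5.96 kb against 3.17 kb on P3. Of its 5 bins marked at E16.5, 3 were members. Bcam, which encodes a cell adhesion protein of the Lutheran blood group (chr7:19756138-19770532), was singled out after its values had been seen: it held 1.00 kb in each genotype at E13.5, 9.995 kb in het against 9.66 kb in KO at E16.5, 8.60 kb against 2.69 kb on P0 and 4.23 kb against 0 kb on P3, with 4 of 10 marked bins members. By contrast, Kcnip4 and Kcnn2, which encode a potassium channel interacting protein and a calcium-activated potassium channel, had 5 and 4 member bins of 65 and 36, and their P3 totals were 83.5 kb in het against 92.1 kb in KO for Kcnip4 and 50.3 kb against 49.4 kb for Kcnn2.

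The gene families were counted against all protein-coding genes, where 524 member bins made up 1.11% of the 47211 bins marked at E16.5 and 995 opposite bins 2.11%. Zfp zinc finger genes, many of which encode repressors of transposable elements, held 7 members of 634 bins (1.10%) in 5 of 388 genes. Vomeronasal receptor genes held 11 of 1084 (1.01%) in 5 of 352 genes, and olfactory receptor genes 4 of 578 (0.692%) in 4 of 1104. These receptor families and the zinc finger genes thus lay near or below the share of all genes. Protocadherin genes held 27 of 943 (2.86%) and 29 opposite bins (3.08%). Of the 27 members Pcdh15 had 15 and 12 were 1 region counted in the 12 overlapping Pcdha genes. Of the 29 opposite bins Pcdh15 had 2, and repeated counting of the others in overlapping genes was not resolved. The leucine-rich repeat genes (Lrrc, Lrrtm, Lrfn, Slitrk and Flrt) held 11 of 323 (3.41%) in 3 of 83 genes, 8 of them in Lrrc4c. Their opposite bins numbered 3 (0.929%). Cdh cadherin genes held 10 of 495 (2.02%) and 15 opposite bins (3.03%), and Kcn channel genes 13 of 554 (2.35%) and 17 opposite bins (3.07%). Opposite bins numbered 6 in the Zfp genes, 12 in the vomeronasal and 8 in the olfactory receptor genes. In the cadherin, channel and receptor families the opposite bins outnumbered the members, as they did over all protein-coding genes. For the protocadherin genes the counts cannot settle this, because overlapping genes share bins. No member bin lay in the listed Cyp (621 marked bins), Serpin (102), Klr (178) or defensin (34) genes, in the 39 germ cell and piRNA pathway genes (49) or in the 26 genes of the heterochromatin machinery (28). The opposite set had 3 bins in the Cyp genes, 4 in the Serpin genes, 9 in the Klr genes and 0 in the other 3 lists.

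Along the chromosomes the members were spread widely. They made up 1.37% (chromosome 19) to 2.31% (chromosome 16) of the bins marked at E16.5, with a median of 1.77%. Of the 2392 windows of 1 Mb with marked bins, 1222 (51.1%) held a member and 87 held at least 10, whereas 1582 (66.1%) held a bin of the opposite set and 55 held at least 10. The members thus reached fewer windows than the opposite set, at a similar number of bins but in fewer runs (2985 against 3612). The fullest window, chr6:44000001-45000000, held 29 members and 23 opposite bins among 564 marked bins and no protein-coding gene, and it contains the longest run. On chromosome 16 the windows chr16:69000001-70000000 (23 members, 6 opposite, 198 marked bins), chr16:53000001-54000000 (19, 2 and 236) and chr16:71000001-72000000 (18, 1 and 180) were also among the fullest, a choice made after the counts had been seen. So were chr1:49000001-50000000 (20, 21 and 618) and chr3:47000001-48000000 (19, 4 and 251). Next came chr1:101000001-102000000 (17, 3 and 276) and chr1:102000001-103000000 (17, 12 and 601). The median gap between neighbouring member runs was 256 kb and 9.27% of gaps were at most 10 kb, against 298 kb and 7.32% in the opposite set. The last 10 Mb of the chromosomes held 4.28% of members and 5.83% of all bins marked at E16.5, and the first 13 Mb held 8.72% and 9.73%.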

How the data were processed

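The authors deposited peak starts and ends in base pairs, 1 list for each genotype and stage with no replicate named, so each was treated as a pooled list. Per the submitters' processing notes, the build was mm10 and the tools were bcl2fastq 2.20, cutadapt 1.18, Bowtie2 2.3.4.1, deepTools 3.5.0 and HOMER 4.10. Which of them called the peaks, with what threshold and control, is not given in the sources used here. Depth is unknown, and peak number and length depend on it.

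Coverage of 1 kb bins counted from position 0 was computed on the autosomes with numpy 2.4.6 and pandas 2.3.3, and intervals with scipy 1.17.1. The bin caller was checked on copies of a peak list from which whole peaks had been removed, a check of the code alone. Gene positions and start windows came from RefSeq tables of GRCm38.p6, and 20665 autosomal protein-coding genes were used. Distances and gene bodies refer to run midpoints. Named regions were the 5 longest runs, the longest of each kind of E13.5 call and the fullest 1 Mb window. Named genes were the 10 with most member bins, with ties broken by alphabet, genes of the gene lists with at least 3, and genes whose start window lies in the longer member runs. The members and lists were chosen with earlier results of these data known. Of the start windows in member runs, 4 of noncoding genes are printed. Alternatives were other call limits, bin sizes, bin positions and list sizes. Chromosomes X and Y were left out by the rule, and repeat annotation was not used here.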

Additional observations from a re-analysis of the deposited data

Results flagged for a closer look

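On the X chromosome, which the rule leaves out, 301 of 11810 bins called in both E16.5 lists met the same conditions (2.55%, 95% interval 2.28 to 2.85%). The opposite direction held 199 bins (1.69%). The X members formed 223 runs, of which 11 reached 3 kb, with a longest of 5 kb. The opposite bins on X formed 159 runs, of which 8 reached 3 kb, a share of runs like that of the members. The autosomal share of members ranged from 1.37 to 2.31%, so the X chromosome lay above all 19 autosomes. The difference was not tested, because each group has 1 list.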

How the results depend on the processing

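Of 8 results, the length in member bins stayed within 1.5 times of 4483 kb under 8 alternative settings (3044 to 4974 kb), and the gene body share stayed below that of the opposite set in each. With the longer 50% of each list, 622 runs reached 3 kb, members were 49.96% of both sets (a reversal) and 57.3% of their long runs, 44.8% had an E13.5 call, 54.8% of runs had no KO base pair and 10.6% lay in gene bodies. With equal numbers of peaks (the longest 52630 of each list) these were 573 runs, 54.0%, 67.2%, 53.2% and 61.7%, in the same order up to the KO base pairs. With no KO base pair allowed there were 219 long runs, members were 60.8% of both sets and 84.6% of long runs, and 47.6% had an E13.5 call. At 25% of a bin, 69.9% of runs had no KO base pair. At 75%, members were 69.9% of long runs, 46.5% had an E13.5 call and 37.9% of runs had no KO base pair. Shifted bins gave 54.8% of runs without KO base pairs, and 500 bp bins gave members 82.6% of long runs. With 2 kb bins 48.0% had an E13.5 call, 49.6% of runs had no KO base pair and 11.3% lay in gene bodies, -12.9 points against the opposite set. In runs of at least 3 kb only, an alternative chosen after seeing the data, the last values were 9.28% and -4.05 points. The cause of these shifts was not tested. No paired analysis was possible because each group has 1 pooled list, and for the same reason no replicate could be left out. Read depth is unknown and limits every statement on an absent peak.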
